A study of Oryza sativa Indica Group with 6 samples.

Results

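The submergence-tolerant rice FR13A and the susceptible rice IR24 were compared by leaf RNA in plants that had been under water for 15 min. The comparison rests on 2 of the 6 dual-colour oligonucleotide arrays of the study, chosen by their labels. Each array held both genotypes: FR13A was in Cy5 and IR24 in Cy3 on replicate 1, and they were in the opposite dyes on replicate 2, so that a constant dye effect cancels in the mean. Plants of both genotypes were raised in growth chambers, were submerged in clear polythene bags at 14 days of age and were harvested on that day. The study's other 4 arrays, which are used here for comparison only, held the same genotypes without submergence (constitutive, 2 arrays, day 14) and after 24 h under water (2 arrays, day 15). Plants that were bagged or handled without submergence were not among the samples. The labels do not say how many plants stand behind each RNA or whether the replicates were separate plants, so the p-values measure the spread between these arrays, which may be technical. Both genotypes differ over their whole genomes, and no near-isogenic line was included, so no difference given here can be tied to the tolerance itself.

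Submergence cuts gas exchange between the leaf and the air. Ethylene then builds up in the tissue and acts as a signal, oxygen falls, and cells turn from respiration to glycolysis and ethanol fermentation to make ATP. Tolerant rices such as FR13A are known for holding back shoot elongation and saving carbohydrate under water, whereas susceptible rices elongate and use their reserves. A time point as early as this one reads the genotypes near the start of the treatment, together with every difference between them that was there before it.

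Of 21495 gene probes on the array, 20315 were kept because FR13A or IR24 was well above background on 2 or more of the 6 arrays, and 20312 of these had a value at 15 min. On replicate 1 81.8% of gene probes were well above background for FR13A and 89.8% for IR24, and on replicate 2 85.4% and 89.3%, so fewer probes were above background for FR13A on both. On replicate 1 the scanner software had marked 397 gene spots as non-uniform or outlying, and on replicate 2 it had marked 70. Their ratios correlated across 19852 probes at r = 0.62 (Spearman rho = 0.38), as a description across genes, which are not independent replicates. The tissue label was checked against 20 leaf markers, of which 18 were well above background in FR13A and 19 in IR24 on both arrays. Median log2 intensity of these markers was 11.84 in FR13A and 11.36 in IR24, against 8.14 over all probes in either genotype, and none of the 20 differed by the test. A Rubisco small-subunit probe that was called at 4.35 (AK068266, below) was not among these 20. In bulk leaf RNA, fewer cells of a type and less RNA per cell cannot be told apart.

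Values below are log2 ratios of FR13A over IR24 after normexp background correction and loess, with SE, the standard error from the limma fit, and n = 2 arrays unless stated. Positive values are higher in FR13A. A probe is called where limma's p, adjusted by Benjamini-Hochberg over all probes, is below 0.05. The ratio of each array is printed for the probes that matter most: if 1 of the 15 min arrays is left out, the other array's ratio becomes the estimate. A call is said to hold where it stayed below the threshold whichever 1 of the 6 arrays was left out. Of the 126 probes named here that were called, 122 had a value on both 15 min arrays, and the calls of 46 held. The other 4 had 1 value, so leaving out that array gives no estimate and their dye effect does not cancel. Probes carry the accession of their cDNA, and names come from the array files. Where the file names the most similar gene of another species, the probe is written as like that gene. A sequence difference between the genotypes under a probe can alter its ratio, which was not tested.

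FR13A and IR24 differed at 1084 of 20312 probes, which is 5.34% (limma). In FR13A 492 of them were higher (2.42%) and 592 lower (2.91%). On the 2 arrays, 1064 of the called probes had both values, and all 1064 went the same way on both, whereas 61.2% of all 19852 probes with both values did. The call is made from these same ratios, so this agreement is largely fixed by it and is no separate support. The median size of a called difference was 0.93, with quartiles at 0.68 and 1.4, against 0.12 over all probes tested. Beyond a log2 difference of 2 there were 52 probes higher and 70 lower, and beyond 3 there were 21 each way. Among the called probes, 27 were higher in FR13A while IR24 was not well above background on either array, and 63 were lower while FR13A was not. Over all gene probes too, FR13A was less often well above background than IR24 on both arrays, so these counts are not compared. Called probes made up 1.97% of the dimmest 5078 probes by mean intensity and 6.14%, 6.6% and 6.64% of the 3 brighter sets of 5078 in order. By description, 4.95% of 15224 described probes were called and 6.49% of 5088 probes described as unknown. Without replicate 1 there were 663 calls, 473 of them among the 1084 and 59.0% higher in FR13A, and without replicate 2 there were 307, 279 of them among the 1084 and 41.7% higher. With each array centred on its median in place of loess there were 183 calls, and with the scan day as a term in the fit there were 337.

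**Figure D1:**
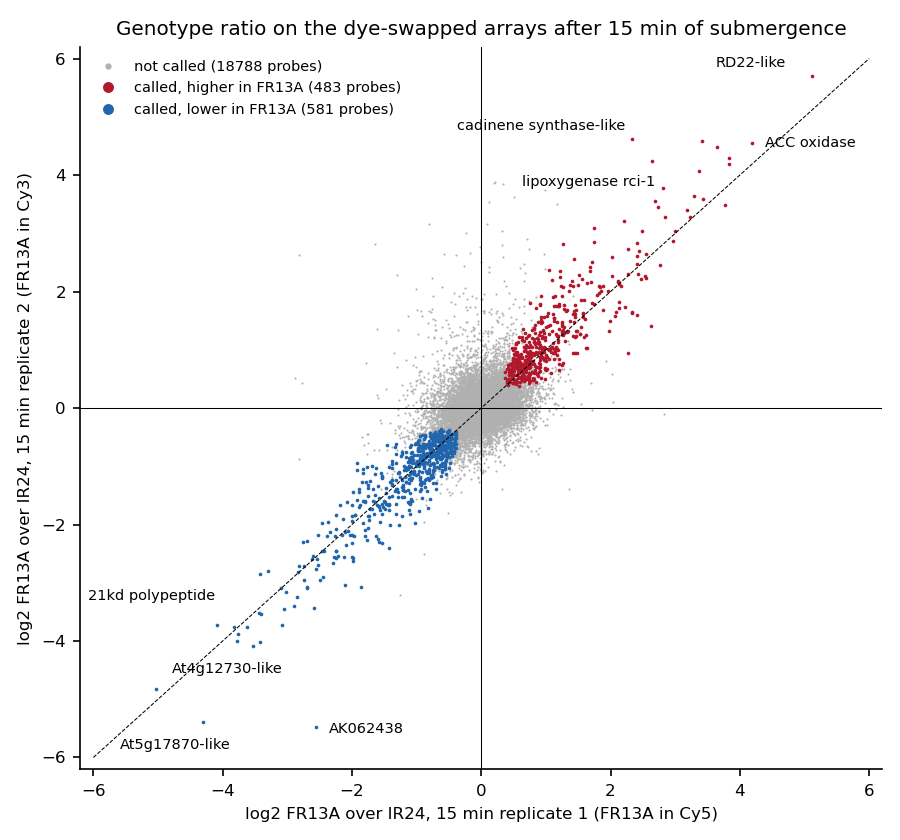
Log2 ratio of FR13A over IR24 for each probe with a value on both 15 min arrays, replicate 1 on the horizontal and replicate 2 on the vertical axis. Red and blue points are probes called higher and lower in FR13A, grey points were not called, and the dashed line marks equal ratios. All 1064 called probes lie at the lower left or upper right, which the call largely fixes, and AK062438, at -2.56 and -5.48, lies far from the line.

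The highest ratio among described probes was that of an RD22-like gene (AK105947), a relative of a dehydration-responsive gene of peach. It stood at 5.12 on replicate 1 and 5.71 on replicate 2, a mean of 5.41 (SE 0.43, adjusted p = 0.00375) or 42.6-fold. Both arrays showed it far brighter in FR13A, with log2 intensities of 14.31 and 14.10 against 9.19 and 8.39 in IR24. A rice ACC oxidase, which carries out the last step of ethylene synthesis (AK058296), followed at 4.19 and 4.55 on the 2 arrays, a mean of 4.37 (SE 0.15, adjusted p = 0.000637) or 20.7-fold. A small-subunit gene of Rubisco, the enzyme that fixes CO2 (AK068266), was at 4.35 (SE 0.27, adjusted p = 0.00417), from replicate 2 alone because its spot on replicate 1 was marked. The calls of AK105947 and AK058296 held, and that of AK068266 could not be tested without its 1 array.

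The next ratios on the FR13A side belonged to genes of varied roles. An SGR2-like gene (AK100611), whose Arabidopsis relative acts in the gravity response of shoots, was at 3.65 and 4.48 (mean 4.07, adjusted p = 0.00122). A carrot cystatin-like gene (AK102139), cystatins being inhibitors of cysteine proteases, was at 2.64 and 4.25 (mean 3.44, adjusted p = 0.0081). An ATP22a-like peroxidase (AK064918) gave nearly the same ratio on both arrays, 3.24 and 3.28, and had the smallest error of these genes (mean 3.26, SE 0.08, adjusted p = 0.000374). A CHUP1-like gene (AK072914), whose Arabidopsis relative is an actin-binding protein that positions chloroplasts, was at 2.96 and 2.88 (mean 2.92, adjusted p = 0.000756). Probes like At4g24840 (AK101862) at 3.10 and like At1g67840 (AK066177) at 2.77, for which the file gives no role, were also called. All of these calls held.

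On the IR24 side the lowest ratio was that of a gene like At4g12730 (AK105777), at -5.04 and -4.83 (mean -4.93, SE 0.13, adjusted p = 0.000374), or 30.5-fold in favour of IR24. Its log2 intensity was 6.95 and 7.37 in FR13A and 11.99 and 12.19 in IR24. A gene like At5g17870 (AK066323) was at -4.30 and -5.39 (mean -4.85, adjusted p = 0.00111), and the rice gene for a 21kd polypeptide (AK105453) at -4.09 and -3.73 (mean -3.91, adjusted p = 0.00119). The genotypes did not overlap in intensity for any of these, which follows from choosing the largest differences. A pair of probes like the same Arabidopsis locus, At2g48070, were low together, AK065418 at -3.79 (adjusted p = 0.00119) and AK104635 at -3.25 (adjusted p = 0.00669). Others beyond -3 were a gene like At5g54440 (AK072345) at -3.47, a gene like peptidylprolyl isomerase, a protein folding enzyme (AK064825), at -3.15, a gene like At1g57590 (AK104609) at -3.09, and a probe matched to a fungal cellulase (AK064349) at -3.10 and -3.09 on the 2 arrays. The MADS-box transcription factor gene FDRMADS6 (AK061899) was at -2.85 and -3.25 (mean -3.05, adjusted p = 0.00164). Of the genes in this paragraph, AK104635 alone lost its call, without replicate 2.

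One probe among the lowest was not steady. AK062438, whose nearest match in the file is a human sequence for a putative regulatory reading frame, read -2.56 on replicate 1 and -5.48 on replicate 2, a mean of -4.02 with an SE of 0.71 (adjusted p = 0.0376). Its call was lost on leaving out any array other than 15 min replicate 1.

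**Figure D2:**
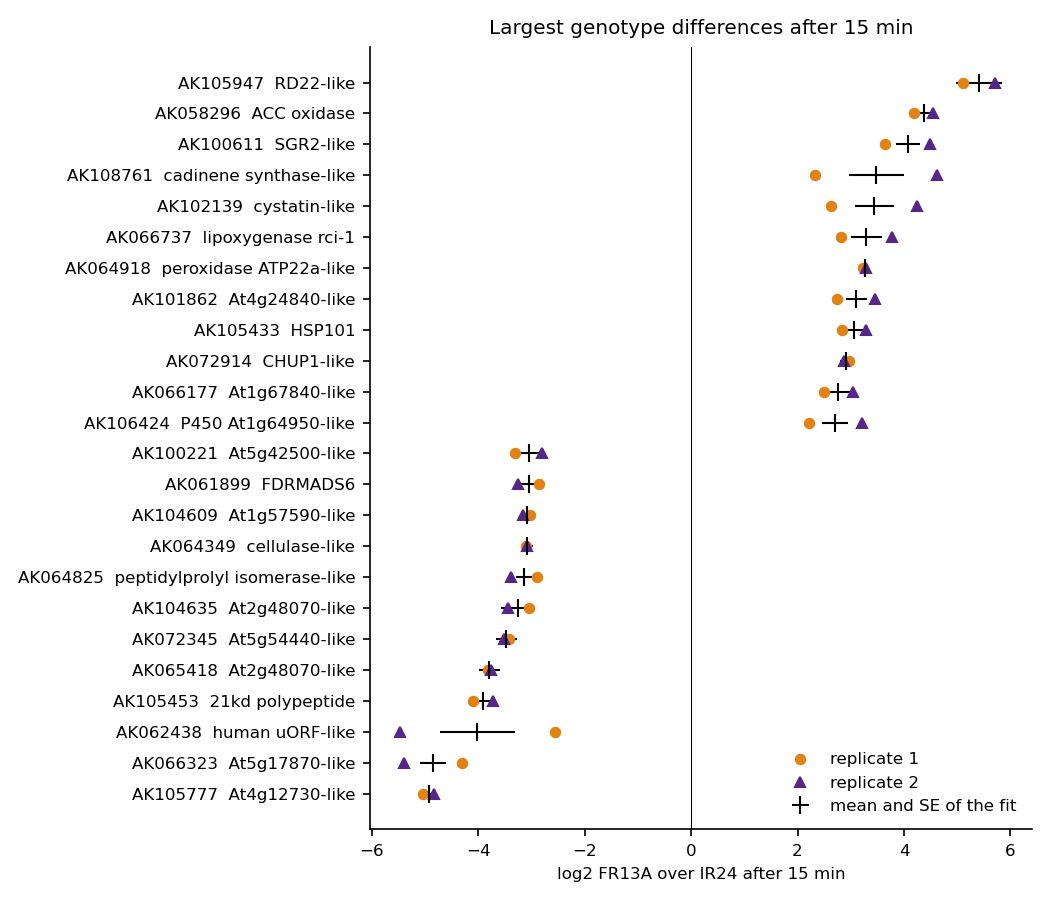
Described probes with the largest called differences at 15 min that had a value on both arrays, 12 higher and 12 lower in FR13A. Circles are replicate 1, triangles replicate 2, and ticks with bars the mean and SE of the fit; the horizontal axis is log2 FR13A over IR24. For most probes both arrays lie close together, while the cadinene synthase-like gene (2.33 and 4.63) and AK062438 (-2.56 and -5.48) are spread widely.

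Ethylene synthesis runs from S-adenosylmethionine through ACC synthase to ACC and through ACC oxidase to ethylene. The array held 11 probes described as ACC synthase or ACC oxidase, and all were measured. Of these, 1 was higher and 1 lower in FR13A, and both were ACC oxidases: AK058296 (above) and ACO1 (AK065039), which stood at -1.21 and -1.41 (mean -1.31, SE 0.12, adjusted p = 0.0052). The pair therefore differed in opposite directions, and the call of ACO1 was lost without replicate 2. The list's median was 0.20, against -0.01 over all probes.

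No other ACC oxidase probe passed. A further rice ACC oxidase (AK059964) was at 0.28, sorghum ACO1-like probes at 0.20 (AK061064) and -0.04 (AK105491, not well above background in FR13A on either array), and the ACC oxidase-like AK102472 at 0.39. None of the 3 ACC synthase probes passed: the rice ACC1 (AK071011) was at 0.07 (SE 0.08), and the wheat-like AK065212 and AK064250 were at -0.51 and 0.46, the latter with arrays at -0.52 and 1.44.

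Of 46 probes for ethylene signalling and for ERF and AP2 factors, the transcription factors that carry ethylene and stress signals to genes, none was higher and 2 were lower (4.35% called). An AP2/ERF-domain gene like potato cip353 (AK106057) was at -1.83 and -1.98 (mean -1.90, SE 0.17, adjusted p = 0.00474), 3.74-fold in favour of IR24, and its call held. A gene like EIN2 (AK105770), in Arabidopsis a central membrane protein of ethylene signalling, was at -0.63 and -0.58 (mean -0.61, adjusted p = 0.0497), just inside the threshold, and lost its call on leaving out any 1 array.

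Fermentation regenerates NAD+ when oxygen is short, by pyruvate decarboxylase (PDC) and alcohol dehydrogenase (ADH) in the ethanol branch. PDC2 (AK101594) was higher in FR13A, at 0.68 and 1.0 (mean 0.84, SE 0.11, adjusted p = 0.0149) or 1.79-fold, and lost the call without replicate 2. PDC1 (AK100678) was at 0.67 and 1.63 (mean 1.15, SE 0.29, adjusted p = 0.0962), and did not pass. ADH1 was at 0.25 (AK069330, adjusted p = 0.329) and 0.16 (AK073964, adjusted p = 0.764) by its 2 probes, and ADH2 (AK102799) at 0.16 (adjusted p = 0.636). The genotypes were thus within 0.3 of each other in the mean of every ADH1 and ADH2 probe.

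Over the list for ethanol, lactate and alanine fermentation, 2 of 55 measured probes were higher and 3 lower (9.09% called, median -0.01). Some of the called members are not fermentation enzymes by their names. The lowest, AK069762, at -2.53 and -2.70 (mean -2.62, adjusted p = 0.00212), is like a short-chain alcohol dehydrogenase of Arabidopsis, a large family of oxidoreductases apart from the classical ADHs. AK100767 at -0.80 (adjusted p = 0.0365) is like maize tasselseed 2, a gene of floral sex determination. An alanine aminotransferase-like gene (AK067732), of an enzyme that makes alanine from pyruvate, was at -1.29 and -1.45 (mean -1.37, adjusted p = 0.0119). Of these the call of AK069762 held, AK100767 lost its own without either 15 min array or either 24 h array, and AK067732 without replicate 2.

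Glycolysis and sucrose breakdown had 2 of 72 probes higher and 1 lower (4.17%, median 0.07). A cytosolic glyceraldehyde-3-phosphate dehydrogenase (AK099086) was at 0.93 and 1.51 (mean 1.22, adjusted p = 0.0148), hexokinase II (AK059853), which phosphorylates glucose, at 0.75 (adjusted p = 0.0241), and a cell-wall invertase-like gene (AK069080), which splits sucrose outside the cell, at -0.62 (adjusted p = 0.016). Of 38 probes for starch synthesis and amylases, 3 were higher and none lower (7.89%, median -0.01). They were a soluble starch synthase (AK109458) at 1.18 and 1.24 (mean 1.21, adjusted p = 0.00508), the small subunit of ADP-glucose pyrophosphorylase (AK073146), which makes the glucose donor of starch, at 1.01 (adjusted p = 0.0242), and glucan phosphorylase L (AK063766) at 0.69 (adjusted p = 0.0237). None of these 6 calls held: AK099086 and AK109458 were lost without replicate 2, AK069080 without either 15 min array, and the other 3 without either 15 min array and without 1 or more further arrays.

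Respiration and the TCA cycle had 2 of 62 probes higher and 1 lower (4.84%). Citrate synthase (AK072950), the entry enzyme of the cycle, was lower at -1.11 and -0.86 (mean -0.98, adjusted p = 0.00693), and its call held. A malate dehydrogenase-like gene (AK101730) was at 0.69 (adjusted p = 0.0213). An NADH-ubiquinone oxidoreductase-like gene (AK072342) was at 0.56 (adjusted p = 0.0286). It was at least 1.4-fold higher in FR13A, since IR24 was not well above background on either array. The calls of AK101730 and AK072342 were lost without either 15 min array or either constitutive array, that of AK072342 also without either 24 h array. Alternative oxidase AOX1A (AK064040), a bypass of the respiratory chain, was at 0.23 and 0.66 (mean 0.44, adjusted p = 0.156). Hemoglobin 1 (AK064054), which scavenges nitric oxide at low oxygen, was at 0.51 and 0.06 (mean 0.29, adjusted p = 0.407), and the wheat Hb2-like hemoglobin (AK073898) was at -0.13 (adjusted p = 0.844).

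Photosynthesis and chlorophyll genes had 2 calls among 78 measured probes (2.56%), below the 5.34% over all probes. One was the Rubisco small subunit AK068266 above. The other was ribulose-5-phosphate 3-epimerase (AK066306), an enzyme of the carbon fixation cycle, at -1.39 and -1.51 (mean -1.45, adjusted p = 0.0031), whose call held. The list's median was -0.06.

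Heat shock proteins are chaperones that keep other proteins folded or recover them from aggregates. Of 88 measured probes for heat shock proteins and factors, 6 were higher in FR13A and 1 was lower (7.95% called), with a median of 0.09. The largest was HSP101 (AK105433), a disaggregating chaperone, at 2.84 and 3.28 (mean 3.06, SE 0.17, adjusted p = 0.00122) or 8.33-fold. Its FR13A intensities of 12.24 and 12.54 lay well clear of 9.40 and 9.26 in IR24. The small heat shock proteins among the called members, which bind unfolding proteins, were higher as well. They were the maize 18 kDa-like AK071240 at 1.62 and 1.25 (mean 1.44, adjusted p = 0.0114), a rice low molecular weight protein (AK069547) at 0.95 and 1.32 (mean 1.14, adjusted p = 0.0149), and HSP26 (AK063618) at 1.10 and 1.04 (mean 1.07, adjusted p = 0.004). Small heat shock probes that were not called were not counted apart.

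The other heat shock calls were, chosen after their values were seen, a heat shock factor 7-like gene (AK101700) at 1.09 and an HSP80-like gene (AK102426) at 0.94, both higher. The lower member, AK065431, is like a spinach 70 kDa heat shock protein and stood at -1.20 and -1.54 (mean -1.37, adjusted p = 0.0081). The list had 5 higher and 1 lower without replicate 1, and 4 higher and none lower without replicate 2. With median centring the list had 1 higher and 0 lower. Calls of HSP101 and HSP26 held, that of AK071240 was lost without replicate 1, and those of AK069547 and AK065431 without replicate 2.

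Phenylpropanoid metabolism turns phenylalanine into lignin precursors and flavonoids. Of 117 measured probes in this list, 4 were higher and 11 lower in FR13A, so 12.8% were called against 5.34% over all probes, while the list's median was 0.01. An anthocyanidin reductase-like gene (AK059518, like BAN of Medicago, which makes flavan-3-ols) was lowest at -2.55 and -2.77 (mean -2.66, SE 0.10, adjusted p = 0.000637). A high-pI laccase (AK068047), laccases being enzymes that can oxidise lignin monomers, was at -2.11 and -3.03 (mean -2.57, adjusted p = 0.014). An isoflavone reductase-like gene (AK061325) was at -2.25 and -2.46 (mean -2.36, adjusted p = 0.00179).

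A cinnamyl alcohol dehydrogenase-like gene (AK067085), of the last step to lignin monomers, was at -1.80 and -2.19 (mean -1.99, adjusted p = 0.00508). The calls of AK059518, AK061325 and AK067085 held, and that of the laccase was lost without replicate 2. The 4 higher members, named after their values were seen, were a chalcone synthase-like gene (AK061132) at 1.82, a cinnamoyl-CoA reductase-like gene (AK107149) at 1.71, a second BAN-like gene (AK072654) at 1.20 and an anthocyanidin rhamnosyltransferase-like gene (AK061074) at 0.59. Lower and higher members thus include enzymes of both the lignin and the flavonoid branch. Without replicate 1 the list had 8 higher and 7 lower, and without replicate 2 it had 2 higher and 4 lower, so the excess of lower calls was not kept on replicate 2 alone.

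Defence proteins include chitinases and glucanases, which attack microbial cell walls, and pathogenesis-related (PR) proteins. Of 117 measured, 8 were higher in FR13A and 3 lower (9.40% called), with a median of 0.01. A class V chitinase-like gene (AK102820) was at 2.12 and 2.18 (mean 2.15, adjusted p = 0.0149), a wheat PR1-like gene (AK107926) at 2.33 and 1.64 (mean 1.98, adjusted p = 0.0209), the probenazole-inducible PBZ1 (AK099157) at 1.63 and 2.14 (mean 1.89, adjusted p = 0.0221), and a bulb chitinase-like gene (AK059767) at 1.21 and 2.35 (mean 1.78, adjusted p = 0.0258). None of these 4 calls held: AK102820, AK107926 and AK099157 were lost without either 15 min array, AK059767 without replicate 2, and AK099157 and AK059767 also without arrays of other times. By size, AK107926 was larger on replicate 1 and the others of these 4 on replicate 2, AK102820 only slightly. The list's median was -0.015 on replicate 1 and 0.063 on replicate 2.

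Lipid-derived and terpenoid defence compounds start with lipoxygenases, which open the path to jasmonates, and with terpene synthases. Among 29 lipoxygenase and jasmonate probes, 1 was higher and 1 lower. The lipoxygenase rci-1 (AK066737) was at 2.82 and 3.78 (mean 3.30, SE 0.28, adjusted p = 0.00442) or 9.82-fold. In contrast, the 12-oxophytodienoic acid reductase RRJ4 (AK100034), from a family that includes a later step of jasmonate synthesis, was at -2.07 and -2.12 (mean -2.09, SE 0.15, adjusted p = 0.00255). Both calls held.

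Of 41 terpene and isoprenoid probes 2 were higher and none lower (4.88%). A cadinene synthase-like gene (AK108761) was at 2.33 and 4.63 (mean 3.48, SE 0.52, adjusted p = 0.0226), and a chloroplast terpene synthase-like gene (AK110925) was at 2.26 and 0.95 (mean 1.61, adjusted p = 0.0397). The arrays differed widely for both, and both calls were lost without either constitutive array. That of AK110925 was also lost without either 24 h array. Of 49 WRKY and NAC factors, 1 passed (2.04%): a WRKY4-like gene (AK102093), from a family of defence regulators, was higher at 1.16 and 1.28 (mean 1.22, SE 0.10, adjusted p = 0.00428), and its call held.

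NBS-LRR proteins are intracellular immune receptors, whose genes vary strongly between rice varieties. Of 171 measured probes, 8 were higher and 7 lower in FR13A, so 8.77% were called with a list median of -0.03. An MLA6-like receptor (AK068168) was at 2.16 and 2.10 (mean 2.13, SE 0.12, adjusted p = 0.0012). IR24 was not well above background there on either array, so the ratio is given as at least 4.38-fold. The rice NBS-LRR-like genes YR14 (AK065947) at -1.61 and -1.67 (adjusted p = 0.00258) and YR48 (AK063494) at -1.51 and -1.69 (adjusted p = 0.00402) were lower. PibH8 (AK065693), a homolog of a blast resistance gene, was at -1.57 (adjusted p = 0.0161), at least 2.83-fold in favour of IR24, as FR13A was not well above background on either array. The first 3 calls held, and that of AK065693 was lost without either 15 min array. Without replicate 1 the list had 4 higher and 3 lower, and without replicate 2 it had 5 higher and 2 lower.

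Of 55 transposon probes 4 were higher and 4 lower (14.5%), at a median size of 0.08, smaller than the 0.12 of all probes. A TdcA1-like element (AK066385) was at 1.44 and 1.76 (mean 1.60, adjusted p = 0.0068) and a Doppia-like transposase (AK108032) at 1.21 and 1.78 (mean 1.49, adjusted p = 0.0154), at least 2.82-fold with IR24 not well above background. A retrotransposon homolog like RF28 (AK064547) was at -1.57 and -1.55 (mean -1.56, adjusted p = 0.00357), at least 2.95-fold in favour of IR24. A Skipper-like element (AK106705) was at -1.34 (adjusted p = 0.0159), at least 2.5-fold in favour of IR24. In both of these FR13A was not well above background on either array. Among these 4 the call of AK064547 held, those of AK066385 and AK108032 were lost without replicate 2, and that of AK106705 without either 15 min array. The list had 3 higher and 1 lower without replicate 1, 1 each way without replicate 2, and no call with median centring.

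Receptor-like and wall-associated kinases, which sense signals at the cell surface, had 7 of 295 probes higher and 4 lower (3.73%). A receptor-like kinase 4-like gene (AK111594) was lowest at -2.39 and -2.2 (mean -2.30, SE 0.19, adjusted p = 0.00407). It was not well above background in FR13A on either array and is therefore given as at least 4.91-fold in favour of IR24. A receptor kinase-like gene (AK111751, like At3g47570) was at 1.62 and 1.03 (mean 1.33, adjusted p = 0.0102). Wall-associated kinase 2-like genes went both ways, AK107166 at 1.43 (0.93 and 1.93 by array, adjusted p = 0.0333) and AK111809 at -1.20 (-1.38 and -1.02, adjusted p = 0.0152). The first 2 calls held, that of AK111809 was lost without either 15 min array, and that of AK107166 on leaving out any array other than 15 min replicate 1.

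Peroxidases, catalases and other antioxidants remove or use reactive oxygen. Of 144 measured, 6 were higher and 6 lower (8.33%). Beside the ATP22a-like peroxidase above, a prxr5-like peroxidase (AK061013) was at 1.09 and 2.21 (mean 1.65, adjusted p = 0.0272). A cotton bacterial-induced peroxidase-like gene (AK067000) was at -1.96 and -1.84 (mean -1.90, SE 0.16, adjusted p = 0.00442) and a rice peroxidase (AK108713) at -1.42 and -2.01 (mean -1.71, adjusted p = 0.00955). Peroxidases thus stood on both sides. The call of AK067000 held, and those of AK061013 and AK108713 were lost without replicate 2, AK061013 also without any array of the other times.

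Glutathione transferases, which couple glutathione to toxic compounds, and related probes had 4 of 56 higher and 2 lower (10.7%). OsGSTU11 (AK061436) was at -1.76 and -1.32 (mean -1.54, adjusted p = 0.00399), and a further transferase (AK071745) at -0.92 and -1.54 (mean -1.23, adjusted p = 0.0286). OsGSTU17 (AK099489) was at 0.87 and 1.49 (mean 1.18, adjusted p = 0.0157), and a glutathione synthetase-like gene (AK099555), of the last step to glutathione, at 0.98 (adjusted p = 0.0119). Only the call of OsGSTU11 held; the other 3 were lost without replicate 2, AK071745 also without either constitutive array.

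Cytochrome P450 enzymes oxidise hormones and defence compounds. Of 115 measured, 4 were higher and 6 lower (8.70%). A P450 like At1g64950 (AK106424) was at 2.21 and 3.21 (mean 2.71, SE 0.24, adjusted p = 0.00505), and a CYP71D10-like gene (AK067543) at -1.79 and -2.09 (mean -1.94, adjusted p = 0.00505). The rice description CYP87A3 covers probes on both sides, AK103336 at 1.13 (adjusted p = 0.0241) and AK065238 at -1.32 (-1.08 and -1.56 by array, adjusted p = 0.00635). All but the call of AK103336 held, which was lost without replicate 2 and without any array of the other times.

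Abscisic acid, dehydration and cold genes had 2 of 49 probes higher and 4 lower (12.2%), with a median of 0.06. Beside the RD22-like gene, a drought-inducible SoDip22-like gene (AK060261) was at 0.95 (adjusted p = 0.0131). A cold-induced glucosyltransferase-like gene (AK107669) was at -1.19 (adjusted p = 0.0191) and a cold acclimation WCOR518-like gene (AK062781) at -1.06 (adjusted p = 0.0309). Only the RD22-like call held: AK060261 was lost without replicate 2, and the other 2 without either 15 min array. AK062781 was also lost without either 24 h array. Without replicate 1 the list had 3 higher and none lower, and without replicate 2 it had 1 higher and 1 lower.

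Growth hormone genes (gibberellin, cytokinin, brassinosteroid and auxin) had 3 of 103 probes higher and 3 lower (5.83%), near the share of all probes. An auxin-induced-like gene (AK105093) was at 1.57 on both arrays (adjusted p = 0.00678), auxin response factor 2 (AK072309) at 0.61 (adjusted p = 0.0421), a cytokinin-binding protein-like gene (AK060655) at -1.19 (adjusted p = 0.032) and an auxin efflux carrier-like gene (AK066552) at -0.55 (adjusted p = 0.0371). None of these 4 calls held without 15 min replicate 2, and all but that of AK105093 were also lost without replicate 1. Those of AK072309 and AK066552 were lost on leaving out any 1 array, and that of AK060655 also without either constitutive array.

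Among MADS-box and homeobox factors, which act in floral and shoot development, 2 of 68 were higher and 3 lower (7.35%). Beside FDRMADS6, a MADS box-like gene (AK066160) was at -2.46 and -1.97 (mean -2.21, SE 0.14, adjusted p = 0.00194), whereas another (AK069122) was at 1.35 and 2.01 (mean 1.68, adjusted p = 0.012). Oshox4 (AK105484), a homeodomain leucine zipper gene, was at 0.60 (adjusted p = 0.0467). The call of AK066160 held, that of AK069122 was lost without replicate 2, and that of Oshox4 without any 1 array. MYB and bZIP factors had 1 call among 92 (1.09%), MYBS1 (AK068565), a MYB factor known to activate a rice amylase promoter under sugar starvation, at -0.89 and -0.93 (mean -0.91, adjusted p = 0.00762), lost without replicate 2. None of the 3 circadian clock probes passed: gigantea (AK072166) was at -0.41 (adjusted p = 0.0646), and the LHY-like AK111726 and AK111893 were at -0.33 and -0.27.

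Transporters and aquaporins had 4 of 171 probes higher and 7 lower (6.43%). An aquaporin 2-like gene (AK109439), of a family of water channels, was at -2.89 (SE 0.27, adjusted p = 0.0106) on replicate 2 alone, its spot on replicate 1 being marked. A sugar transporter (AK073216) was at 1.43 and 1.66 (mean 1.55, adjusted p = 0.0146), an NTL1-like nitrate transporter (AK068089) at 1.18 and 0.91 (mean 1.05, adjusted p = 0.00622) and an AMT2-like ammonium transporter (AK100411) at 1.0 (adjusted p = 0.0492). With the marked spots kept AK109439 was at -1.85 and was not called, nor was it called from the authors' deposited log ratios, and it could not be tested without its 1 array. The call of AK068089 held, that of AK073216 was lost without either 15 min array, and that of AK100411 on leaving out any array other than 15 min replicate 1.

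Cell wall loosening genes had 4 of 144 probes higher and 3 lower (4.86%). An expansin-like gene (AK102489), expansins being proteins that let walls extend, was at 1.26 and 0.74 (mean 1.0, adjusted p = 0.0359), and an endo-xyloglucan transferase-like gene (AK061093) was at -1.09 (adjusted p = 0.0189). A second probe matched to the fungal cellulase (AK060558) was at -0.84 (adjusted p = 0.00637), at least 1.79-fold in favour of IR24, with FR13A not well above background. None of these 3 calls held: AK060558 was lost without replicate 2, and the other 2 without either 15 min array or either constitutive array. AK102489 was also lost without either 24 h array.

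Calcium signalling had 1 of 101 higher and 3 lower (3.96%). A calmodulin-like gene (AK109470) was at -1.46 on replicate 1 alone (adjusted p = 0.0212), a rice calmodulin-like protein (AK070889) at -0.73 (adjusted p = 0.0161), a calmodulin-binding protein-like gene (AK067865) at -0.64 (adjusted p = 0.023), and a calcium ATPase-like gene (AK108698) at 1.0 (adjusted p = 0.0196). The ubiquitin, F-box and proteasome list had 3 of 189 higher and 2 lower (2.65%), among them a UBC11-like conjugating enzyme (AK108167) at 1.54 and 1.85 (mean 1.70, adjusted p = 0.00296) and an ORE9-like F-box gene (AK107102), in Arabidopsis a regulator of leaf senescence and strigolactone response, at 0.98 (adjusted p = 0.00622). Of these 6 calls that of AK108167 held. Those of AK070889 and AK107102 were lost without replicate 2, those of AK067865 and AK108698 without either 15 min array, and that of AK109470 without either 24 h array. The call of AK067865 was also lost without either constitutive array.

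Ribosomal proteins had 4 of 165 probes higher and 4 lower (4.85%). The extremes were a ribosomal protein I-like gene (AK066379) at -1.66 and -1.82 (mean -1.74, adjusted p = 0.00179) and a ribosomal protein L9 gene (AK102186) at 1.02 (adjusted p = 0.0198). Histones and cell division had 1 of 62 each way (3.23%), alpha-tubulin (AK102560) at 0.75 (adjusted p = 0.0313) and a D-type cyclin-like gene (AK070370) at -1.34 (adjusted p = 0.0103). Nitrogen assimilation and amino acid synthesis had 1 of 55 lower (1.82%), cysteine synthase rcs1 (AK099598) at -0.62 (adjusted p = 0.0263). Of these 5 calls that of AK066379 held, those of AK102186 and AK070370 were lost without replicate 1, and those of AK102560 and AK099598 without either 15 min array. Those of AK102186, AK102560 and AK099598 were also lost without either 24 h array, and that of AK099598 without either constitutive array.

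**Figure D3:**
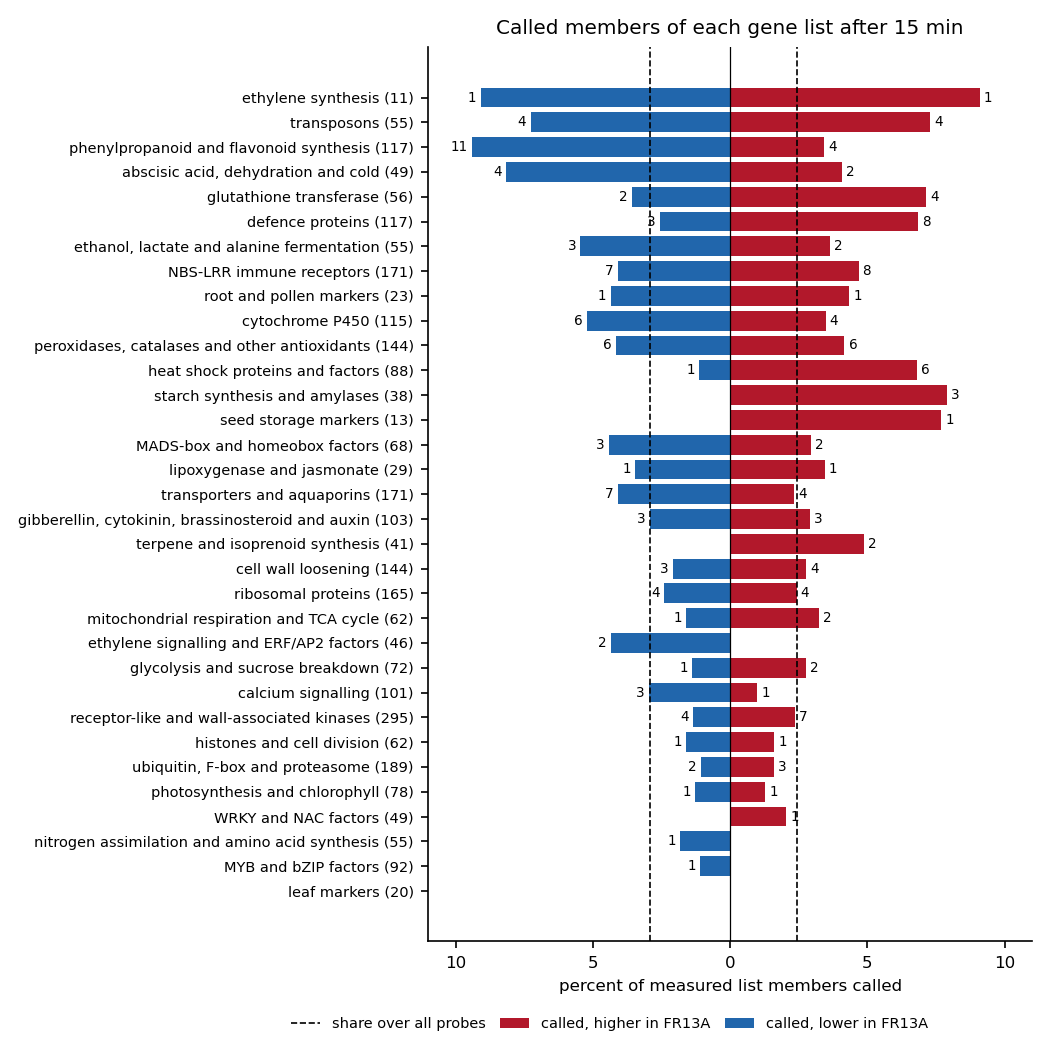
Share of measured members of each gene list called at 15 min, higher in FR13A to the right and lower to the left, in percent of the members measured (number in brackets); the number of probes stands at each bar. Dashed lines mark the shares over all probes, 2.42% higher and 2.91% lower. Lists with fewer than 10 measured members are not drawn, and the phenylpropanoid list has the longest bar to the left.

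Markers of other organs were read beside these results. Of 13 seed storage probes 1 was called, oryzacystatin (AK061770), a protease inhibitor first known from seed, higher at 0.91 and 1.31 (mean 1.11, adjusted p = 0.0119). The summed linear intensity of that list was 4721 and 4820 in FR13A and 3463 and 3125 in IR24. Its median ratio was only 0.019 and its lowest -0.11. The sum includes AK061770, and the weight of single probes in it was not tested. Of 23 root and pollen probes 1 was higher and 1 lower: an anther A6-like gene (AK065469) at 0.95 (adjusted p = 0.00508), at least 1.79-fold with IR24 not well above background, and the root-specific RCc3 (AK063684) at -1.92 and -0.95 (mean -1.43, adjusted p = 0.0316). The summed intensity of 22 of these markers with all values was 7910 and 9014 in FR13A and 10501 and 8778 in IR24, and 3 of the 23 were not well above background in any channel. The call of AK065469 held, that of AK061770 was lost without replicate 2 and that of RCc3 on leaving out any array other than 15 min replicate 2. The sums of the root and pollen list overlap between the genotypes. For both lists the part of such tissue in any result was not tested.

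Several descriptions covered paralogous or similar probes on both sides, and probes that share a description may share sequence, so cross-hybridisation between them was not tested. Among 13 probes like At5g42500, 1 was higher, AK108186 at 1.79 (adjusted p = 0.03), and 1 lower, AK100221 at -3.05 (-3.30 and -2.79 by array, adjusted p = 0.00169). Among 3 BAN-like probes AK072654 was at 1.20 and AK059518 at -2.66. MLA6-like probes had 3 of 12 higher and 3 lower, from AK068168 at 2.13 to AK066950 at -0.92 (adjusted p = 0.00781). A rice chitinase description with 13 probes spanned AK064180 at 1.5 (adjusted p = 0.0332) and AK065866 at -1.5 (-1.03 and -1.98 by array, adjusted p = 0.0421). Receptor-like kinase 4-like probes had 1 of 13 higher, AK111734 at 0.62 (adjusted p = 0.0387), and 2 lower, and glossy8-like probes, named for a maize gene of leaf wax synthesis, spanned AK060501 at 0.74 (adjusted p = 0.0475) and AK064965 at -1.90 (adjusted p = 0.0149). These families were chosen because they held called members in both directions, so the opposite directions follow from the choice. The calls of AK108186, AK064180, AK065866 and AK064965 were lost without replicate 2 and those of AK111734, AK060501 and AK066950 without either 15 min array. Those of AK108186, AK064180, AK065866, AK111734 and AK060501 were also lost without either constitutive array, and all of these but that of AK108186 without either 24 h array.

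The study's design also sets the genotype ratio at 15 min against that before submergence. By limma's test of that difference 0 of 20311 probes passed (0.0% called, smallest adjusted p = 0.598). At an unadjusted p below 0.05 there were 427, fewer than that threshold alone would give if no ratio differed. Of the 1084 probes called at 15 min, 841 had a call of the same direction in unsubmerged leaves and 0 of the opposite direction. At 24 h 788 had a call of the same direction and 5 of the opposite direction, and 133 were called at neither time. The share of all probes called at those times is not reported here, so these counts are not set against it. All estimates share 1 spread, and a call at 1 time and not at another is no test of a difference. Within the 133, 55 were higher in FR13A, the median size was 0.73, and 50 had an unadjusted p below 0.05 for the difference from unsubmerged leaves. The 133 were chosen by a call at 15 min and none in unsubmerged leaves, so the 50 follow in part from that choice.

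Among described probes the 6 with the smallest p for that difference were listed as values, since none passed. They were an F-box-like gene (AK068929), with a mean of -1.91 in unsubmerged leaves and -0.82 at 15 min, AK107438 with -0.15 and 0.60, a rice gene annotated as relating to carbonate stress (AK063832) with -0.03 and -0.97, a cis-zeatin glucosyltransferase-like gene (AK101107), of a family that inactivates the hormone cytokinin, with 1.0 and -0.20, a zinc finger gene like PMZ (AK065210) with 0.12 and -1.56, and HSP26 (AK063618) with 0.36 and 1.07. Of the same 6, AK065210 stood at -1.85 and -1.27 by array at 15 min, against 0.38 and -0.14 before submergence, so the arrays of both times did not overlap. On the 1 scan day that held arrays of both times (constitutive replicate 1 and 15 min replicate 2), the differences were 1.21 for AK068929, 0.72 for AK107438, -0.91 for AK063832, -1.05 for AK101107, -1.64 for AK065210 and 0.60 for AK063618. These arrays are among those that chose the 6 probes, so the values describe them and support nothing.

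The 3 small heat shock proteins called at 15 min did not follow 1 course, and none of their differences passed. AK069547 was at 0.15 and -0.12 before submergence, 0.95 and 1.32 at 15 min, and -0.44 and -0.07 at 24 h. AK071240 was at 0.60, 1.44 and 0.17 in the mean of the 3 times in order. The ratio of both was highest at 15 min, whereas that of HSP26 (AK063618), at 0.36, 1.07 and 1.54, was highest at 24 h. Chosen after their values were seen, MYBS1 (AK068565) was at -0.25, -0.91 and -0.36, the expansin-like AK102489 at 0.06, 1.0 and 0.05, and the bacterial-induced peroxidase-like AK067000 at -0.72, -1.90 and -0.81 in the same order. For AK102489 the value before submergence is from constitutive replicate 2 alone, so its dye effect does not cancel.

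Between 15 min and 24 h, the genotype ratio differed at 17 of 20289 probes (0.0838%), 6 of them moving towards FR13A (0.0296%) and 11 towards IR24 (0.0542%) by limma's test, with 1158 at an unadjusted p below 0.05. A cytosolic phosphoglycerate kinase-like gene (AK070705), of an ATP-making step of glycolysis, was at -0.03 and 0.19 at 15 min and at 3.37 and 3.42 at 24 h, a difference of 3.31 (SE 0.15, adjusted p = 0.00976). PibH8 (AK065693) was at -1.65 and -1.49 at 15 min and at -5.31 and -4.86 at 24 h (difference -3.52, adjusted p = 0.0454). FR13A was not well above background for PibH8 on either 15 min array, so the ratio at 15 min and the difference are measured values and not exact. The BAN-like AK072654 went from higher to lower in FR13A, with 1.0 and 1.4 at 15 min and -2.22 and -1.76 at 24 h (difference -3.19, SE 0.21, adjusted p = 0.0273). At 15 min, then, the kinase-like gene did not separate the genotypes and the BAN-like gene did so in the opposite direction to that at 24 h, with a 15 min call that was lost without replicate 2. None of the 17 calls remained with the replicate number or the scan day in the fit. The 17 kept their signs in both fits, at a median size of 2.069. The residual degrees of freedom were 2 and 1 there, against 3 in the main fit. Why the calls were lost was not tested.

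Other described probes of that contrast were AK107152, like AT3g11930, at 0.23 at 15 min and 3.38 at 24 h (difference 3.16, adjusted p = 0.0273), AK060656, described by an Arabidopsis clone, at -0.18, with FR13A not well above background on either array, and -2.25 (difference -2.07, adjusted p = 0.038), and AK067087, described as a disease resistance gene, at -0.36 and -2.51 (difference -2.16, adjusted p = 0.0384). None of the 3 was called at 15 min.

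The 8 defence proteins called higher at 15 min had 24 h ratios from -0.10 (PR1-like AK107926) to 1.83 (chitinase-like AK102820) on the log2 scale. The following probes were chosen for their lower ratio at 24 h after their values were seen, and none of the differences passed. Lipoxygenase rci-1 (AK066737) was at 3.30 at 15 min and -0.03 at 24 h (difference -3.33, SE 0.40, adjusted p = 0.101). The PR1-like AK107926 was at 1.98 and -0.10 (difference -2.08, adjusted p = 0.26), the WRKY4-like AK102093 at 1.22 and 0.05 (difference -1.17, adjusted p = 0.107), and the P450 AK106424 at 2.71 and 0.58 (difference -2.13, adjusted p = 0.184). In unsubmerged leaves all 4 were on the FR13A side, at 4.05, 2.52, 1.66 and 3.09 in this order. On the IR24 side the receptor-like kinase 4-like AK111594 was at -2.69 before submergence, -2.30 at 15 min, where FR13A was not well above background, and -0.09 at 24 h (adjusted p of the difference = 0.101).

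**Figure D4:**
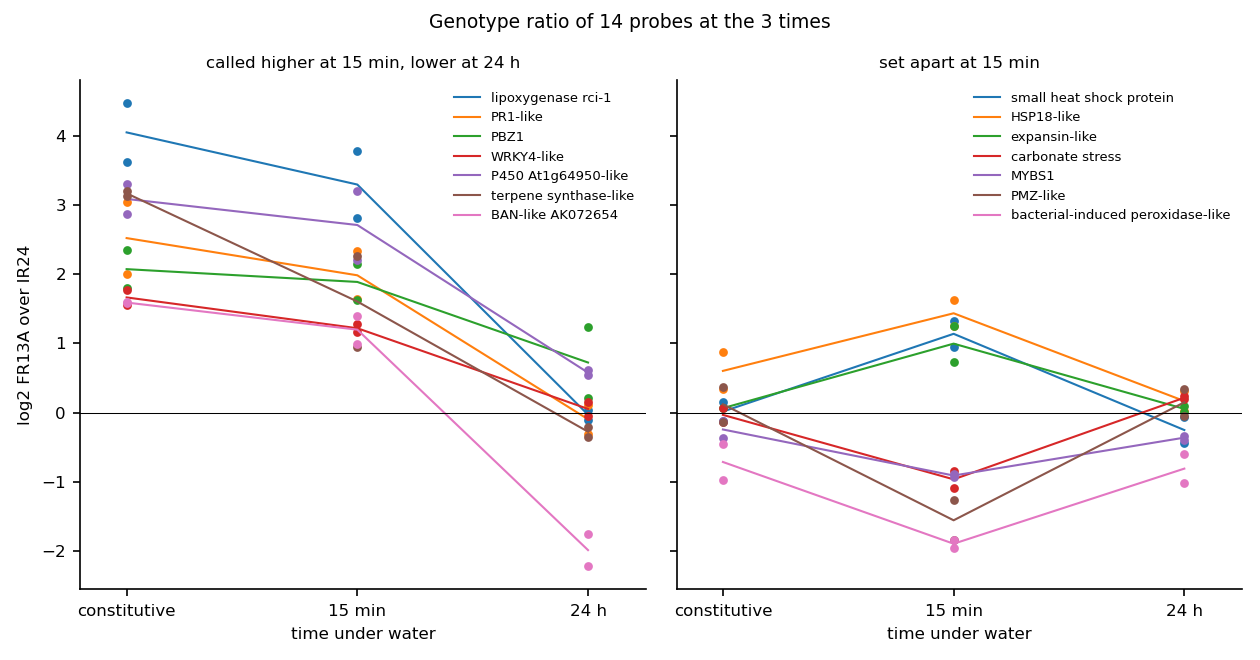
Log2 ratio of FR13A over IR24 for 14 probes in unsubmerged leaves, at 15 min and at 24 h under water; points are single arrays and lines join the means. In the left panel ratios called higher at 15 min lie lower at 24 h, the BAN-like AK072654 at 1.20 and then -1.99; in the right panel the ratio at 15 min lies apart from both other times, as for PMZ-like AK065210 (0.12, -1.56 and 0.15). For the expansin-like probe the value in unsubmerged leaves is from constitutive replicate 2 alone. Of the differences between times drawn here only that of AK072654 passed the adjusted test.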

How the data were processed

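Per the file headers, the authors deposited scanner intensity values (mean signal and median local background) in green and red for each array, processed intensity, and a log10 red to green ratio. The authors' series-wide deposited table also has log10 ratios; they correlated at 1 and -1 with the scanner ratios of replicates 1 and 2, so it gives FR13A over IR24. Agilent Feature Extraction 8.1 is named in the submitters' processing notes. From 22575 spots, 162 negative and 918 positive controls were left out. Background was corrected with normexp (offset 50), arrays were normalised by loess in limma 3.58.1 (R 4.3.3), and marked spots were left missing. All 6 arrays entered 1 fit with 1 mean for each time and 1 common spread (3 residual and 2.618 prior degrees of freedom). Tests were two-sided, and the test script was tested on simulated data. The number of arrays limits the precision.

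Replicate numbers equal dye orientations. Deviations of same-numbered arrays correlated at 0.0996 for constitutive and 15 min, 0.0596 for constitutive and 24 h, and 0.402 for 15 min and 24 h. The numbers were not taken as pairs in the main fit. For 24 h against 15 min, where the correlation was highest, none of the 17 calls remained with the replicate number in the fit. Both 15 min arrays were scanned on different days, each with the 24 h array of its number, and replicate 2 also with constitutive replicate 1. A ratio lies within an array and so within a day.

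Named probes are the 12 highest and 12 lowest described probes that were called with the same direction on both arrays, up to 4 called members per gene list, whole small lists, fixed genes, 6 probes per contrast between times and 6 families. The families were those with called members in both directions, taken by largest spread. Members, lists and most alternatives were chosen with earlier results of these data known; list patterns were trimmed by their description words. Intensities of a genotype are log2 values after loess and Aquantile. A ratio is written "at least" where a genotype was not well above background on either array. The signal of that genotype is then its measured value or the dimmest signal that was well above background, whichever is larger. Where the measured value was larger, the printed bound equals the measured ratio, as for AK068168 at 4.38-fold. The RefSeq gene table held 0 of the 20315 probe accessions, so no coordinates or sequences are given. Values of some probes named by these rules are not reported here.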

Additional observations from a re-analysis of the deposited data

Results flagged for a closer look

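The genotype ratio differed between 24 h and 15 min at 17 probes by limma's test of the difference, adjusted over 20289 probes, and each is given as a value. Moving towards FR13A from 15 min to 24 h were the cytosolic phosphoglycerate kinase-like AK070705 by 3.31, AK110639, described as unknown, by 3.19, AK107152, like AT3g11930, by 3.16, the unknown AK103599 by 2.21, AK107013, like At4g23790, by 1.52 and the unknown AK066003 by 1.4. The ratio of AK107013 was -1.31 at 15 min, and that of AK103599 was -0.49.

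Differences below 0, towards IR24 at 24 h, were -3.52 for PibH8 (AK065693), -3.19 for the BAN-like AK072654, -2.16 for the resistance gene AK067087, -2.07 for AK060656, described by an Arabidopsis clone, and -2.07 for AK068675, like At1g80110. They were -2.02 for AK073328, described by another Arabidopsis clone, -1.79 for the F-box-like AK068929, -1.76 for AK065474, like At1g21680, and -1.68 for the amino acid transporter-like AK099094. The smallest were -1.36 for AK067278, like At5g18980, and -1.34 for the unknown AK110646. For AK065693, AK060656 and AK068675, FR13A was not well above background on either 15 min array, so these differences are not exact.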

How the results depend on the processing

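The 1084 calls at 15 min were 1561 with Agilent's processed signals and 1494 with the authors' deposited log ratios, 1051 without a filter on dim probes, 968 with both channels well above background, 1014 with marked spots kept and 1069 with the replicate block (881 shared with the 1084). They fell to 183 with median centring, to 337 with scan day as a term (301 shared) and to 183 from the 15 min arrays alone, and lay between 307 and 708 when 1 array was left out. When a 15 min array is left out, the lone array left is assumed to vary like the other groups. Of the 126 named calls, 86 were lost under median centring, 68 with scan day, 19 with the replicate block, 40 and 68 without 15 min replicate 1 and 2, and 96 under at least 1 setting; none changed sign under any. The cause was not tested. Median size of the 1084 was 0.93, and 1.37 with processed signals, without the offset of 50. For 15 min against constitutive the count was 0 under each of these settings that has constitutive arrays. For 24 h against 15 min the 17 calls were 22 and 23 with processed signals and deposited ratios, 9 with both channels well above background, and 0 with median centring, the replicate block or scan day, and 0 to 3 when 1 array was left out, with the 17 signs kept. Dim FR13A channels limit what can be read for probes lower in FR13A.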

Other observations

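The 15 min arrays were not alike in where they disagreed. On replicate 2 alone, 175 probes had a ratio above 1 in FR13A's favour while replicate 1 lay within 0.5 of 0, and 1 of them was called; the highest reached 3.88. The same pattern below -1 held for 41 probes. With the arrays exchanged, 40 probes were above 1 on replicate 1 alone and 62 below -1. FR13A was in Cy3 on replicate 2, and replicate 2 had 70 marked spots against 397; the part of either was not tested.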
